A study of Saccharomyces cerevisiae with 27 samples.

Results

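Strain LCY002 of the yeast Saccharomyces cerevisiae carries a plasmid-borne array of 40 genes for galactose use, glycolysis and ergosterol synthesis, and it was set against BY4741, which carries no plasmid, on galactose and on glucose. The quantity described is the interaction of strain and carbon source: the log2 ratio of LCY002 over BY4741 in galactose minus the same ratio in glucose. It was read from 12 of the 27 libraries of the series, chosen by their strain and carbon source, with 3 libraries in each of 4 groups. A positive interaction means that LCY002 stood higher relative to BY4741 in galactose than in glucose, or, in other words, that galactose raised the gene more, or lowered it less, in LCY002.

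The 4 groups were LCY002 in galactose, BY4741 in galactose, LCY002 in glucose and BY4741 in glucose. Both strains have the genotype his3Δ1 leu2Δ0 met15Δ0 ura3Δ0, and LCY002 holds in addition a centromeric plasmid with the HIS3 marker and the 40-gene array. The 3 libraries of a group came from individual colonies, cultures were started in synthetic medium without histidine, and cells were collected at an OD600 of about 1.0. BY4741 cannot make histidine, and whether the last cultures held histidine is not stated in these sources. LCY002 and BY4741 differ by the HIS3 marker, by the plasmid and by the array together, so that effects of the marker and of the array cannot be told apart between these strains. LCY001, which is BY4741 with the HIS3 plasmid without the array, is given beside some results. A gene has 1 count for its array copy and its chromosomal copy together.

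Total expected counts of the 12 libraries ran from 14950707 to 16219263, so that 3 counts, the limit used for a gene at 0, correspond to 0.201 CPM in the smallest library (counting error only). The marker gene HIS3, needed to make histidine, checked the labels, at 438 ± 9.67 CPM in LCY002 and 27.9 ± 1.66 CPM in BY4741 in galactose, and at 507 ± 18.9 CPM in LCY002 and 37.6 ± 2.15 CPM in BY4741 in glucose (SD, n = 3 each). The his3Δ1 allele leaves part of the gene in place. LEU2, URA3 and MET17 had 0 counts in every library. BY4741 is a MATa strain, and over the 12 libraries 7 a-cell genes summed to between 1168 and 3268 CPM and 5 alpha-cell genes to between 97.8 and 109.0 CPM. Levels are CPM, the counts divided by library size after scaling with the TMM factors of edgeR, and log2 values are given with an approximate standard error (SE). The SE is the absolute log2 value divided by the square root of the F statistic of the edgeR test. RNA was measured in bulk, so that fewer cells with a transcript and less of it per cell cannot be told apart.

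As background, yeast takes up galactose through the permease Gal2 and turns it into glucose phosphate with the enzymes of the Leloir pathway, Gal1, Gal7 and Gal10. The activator Gal4 binds their promoters, Gal80 blocks Gal4, and Gal3, when bound to galactose, draws Gal80 away. Glucose represses the same genes. Glycolysis then breaks the sugar down, and most yeast cells ferment on glucose while galactose leaves more room for respiration. Ergosterol is the main sterol of the yeast membrane.

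The Gal4 motif was searched upstream of the galactose genes of the array, because the largest interactions of the array lay on genes that Gal4 is known to activate. The motif is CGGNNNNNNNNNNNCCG on either strand, which reads the same way in both directions. Within 600 bases before the start codon it was found for 7 of the 9 galactose genes, namely GAL1, GAL10, GAL2, GAL3, GAL7, GAL80 and GAL4, against 3.45% of 5681 genes with such a sequence. Each line gives the distance of the match from the start codon, the coordinates in build R64 and the strand of the gene, with 10 bases on each side, from the RefSeq genome and 5′ to 3′ along the gene. Capitals mark the motif match. GAL1 and GAL10 are transcribed away from each other from 1 shared region, so the 3 matches are printed only as read towards GAL1.
GAL1 match at 453 bases (chrII:278558-278594, plus strand): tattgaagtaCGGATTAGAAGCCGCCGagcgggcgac
GAL1 match at 434 bases (chrII:278577-278613, plus strand): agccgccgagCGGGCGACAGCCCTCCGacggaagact
GAL1 match at 416 bases (chrII:278595-278631, plus strand): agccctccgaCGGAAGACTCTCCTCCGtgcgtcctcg
GAL7 match at 192 bases (chrII:275693-275729, minus strand): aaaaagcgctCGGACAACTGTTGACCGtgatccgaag
GAL2 match at 530 bases (chrXII:289672-289708, plus strand): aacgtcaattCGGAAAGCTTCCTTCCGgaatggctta
GAL2 match at 416 bases (chrXII:289786-289822, plus strand): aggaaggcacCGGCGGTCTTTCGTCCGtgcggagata
GAL2 match at 397 bases (chrXII:289805-289841, plus strand): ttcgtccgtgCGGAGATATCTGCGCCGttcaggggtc
GAL2 match at 333 bases (chrXII:289869-289905, plus strand): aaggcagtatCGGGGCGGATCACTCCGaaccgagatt
GAL2 match at 328 bases (chrXII:289874-289910, plus strand): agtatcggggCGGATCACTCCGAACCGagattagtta
GAL3 match at 288 bases (chrIV:463136-463172, plus strand): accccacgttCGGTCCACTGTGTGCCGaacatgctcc
GAL80 match at 172 bases (chrXIII:171412-171448, plus strand): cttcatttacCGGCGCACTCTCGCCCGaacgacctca
GAL4 match at 470 bases (chrXVI:82800-82836, minus strand): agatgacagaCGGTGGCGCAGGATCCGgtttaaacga
The last 2 matches of GAL2 overlap each other. A match is a run of letters and not a shown site, and the phosphoglucomutase genes PGM1 and PGM2 had none in this window. Most of these genes were known beforehand as targets of Gal4, so the share is not a test. The match does not separate the genes called for the interaction from the others, since GAL4 has a match and was not called, while PGM2 has none and was called. The letters are those of the reference chromosomes, and the array copies were not examined.

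The interaction was called, at an adjusted p below 0.05, for 635 of 5692 genes tested (11.2%; edgeR quasi-likelihood test), 308 positive (5.41%) and 327 negative (5.74%). Most were small, since 23 positive and 17 negative ones reached 1 on the log2 scale and the median absolute interaction over all genes was 0.106. The split depended on the scale, with 217 positive and 430 negative with total counts as the scale, and 269 and 617 in a fit of the 12 libraries alone. Of the 40 array genes 15 were called, and the other 620 lay outside the array. Beside them, LCY002 differed from BY4741 at 2154 genes in galactose (37.8%) and at 2188 in glucose (38.4%), and for 1059 of the 1211 genes that differed the same way on both carbon sources no interaction was called.

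**Figure D1:**
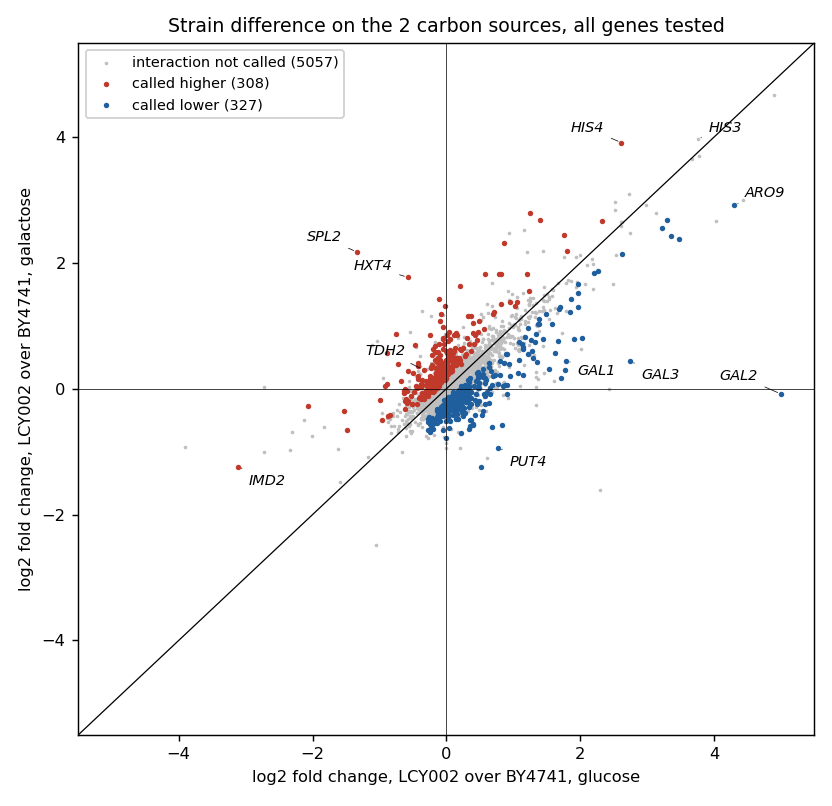
Each point is 1 of the genes tested, with the log2 fold change of LCY002 over BY4741 in glucose on the x axis and in galactose on the y axis; red and blue mark 308 positive and 327 negative called interactions, and grey the 5057 others. Most genes lie along the diagonal of equal strain differences, the galactose genes lie below it, HIS4 and HXT4 above it, and 8 genes lie outside the axes.

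The response to galactose was on the whole smaller in LCY002 than in BY4741. Galactose changed 3421 genes in LCY002 (60.1%) and 3730 in BY4741 (65.5%). It raised 33.7% of all genes in LCY002 and 33.9% in BY4741, and lowered 26.4% in LCY002 and 31.7% in BY4741. Of the 635 genes with an interaction, 344 responded in the same direction in both strains, and the response was smaller in LCY002 for 320 of them and larger for 24. Galactose raised 198 of the 320 and lowered 122. A further 61 genes responded in opposite directions, 73 responded in LCY002 alone and 157 in BY4741 alone by these calls. Over all genes raised by galactose in both strains, called for the interaction or not, the change was smaller in LCY002 for 1058 of 1532 (69.1%), with a median log2 response of 0.35 in LCY002 and 0.44 in BY4741. Among genes lowered in both strains it was smaller in LCY002 for 1082 of 1319 (82.0%), with medians of -0.32 in LCY002 and -0.41 in BY4741. With total counts as the scale these shares were 80.0% and 70.3%, and in a fit of the 12 libraries alone 82.6% and 64.1%. In the fit used here they stayed between 65.3% and 83.5% when any 1 of the 12 libraries was left out.

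The galactose genes held the 6 largest interactions of the array, all of them negative. Of the 9 genes, 7 were called negative and 0 positive, with a median of -1.06, against a median of 0.02 over all genes. LCY002 was higher than BY4741 at 6 of the 9 in galactose (19.8% of all genes were) and at all 9 in glucose (17.7% of all genes were). The median strain difference was 0.45 in galactose and 1.66 in glucose, and the median galactose response was 3.10 in LCY002 and 5.42 in BY4741. Together the 9 genes took 4.46% ± 0.024 of all counts in LCY002 and 3.70% ± 0.087 in BY4741 in galactose, and 0.131% ± 0.0077 in LCY002 and 0.0557% ± 0.0038 in BY4741 in glucose. These libraries did not overlap between strains on either carbon source.

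**Figure D2:**
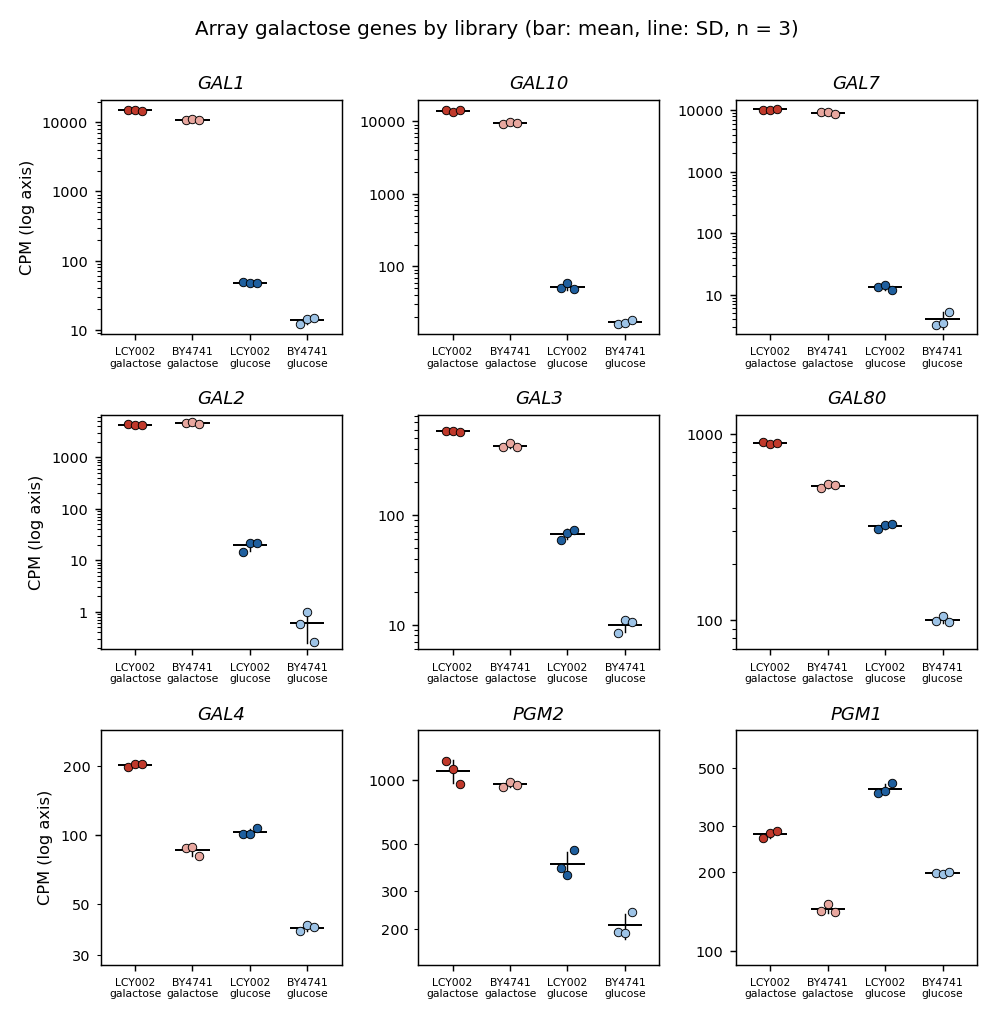
CPM on a log axis for each of the 9 galactose genes of the array, with 1 point per library, the mean as a bar and the SD as a line (n = 3); LCY002 stands left of BY4741 and galactose left of glucose. For GAL1, GAL10, GAL7, GAL2 and GAL3 the gap between the strains is wide in glucose and narrow in galactose, while GAL4 and PGM1 show like gaps on both.

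GAL1 encodes galactokinase (gene ID 852308, chromosome II, 279021 to 280607). It stood at 15202, 14929 and 14621 CPM in LCY002 and at 10852, 11113 and 10906 CPM in BY4741 in galactose. In glucose it stood at 49.01, 47.2 and 47.0 CPM in LCY002 and at 11.99, 14.5 and 14.8 CPM in BY4741. LCY002 was thus higher than BY4741 in every library on both carbon sources, by 1.36 fold in galactose and 3.47 fold in glucose. The interaction was -1.35 ± 0.13 (adjusted p = 2.81e-08). On the linear scale the order is the other way round, since LCY002 exceeded BY4741 by 3960 CPM in galactose and by 34.0 CPM in glucose. Of the 9 galactose genes, 6 including GAL1 had the larger CPM excess of LCY002 in galactose, and 3 had it in glucose. Galactose raised GAL1 by 312 fold in LCY002 and by 795 fold in BY4741. GAL1 overlaps another annotated gene, and strand was not stated for the counting, so its reads are uncertain there.

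GAL10, which encodes the epimerase and mutarotase of the pathway (gene ID 852307, chromosome II, 276253 to 278352), gave 14162, 13506 and 14189 CPM in LCY002 and 9215, 9710 and 9395 CPM in BY4741 in galactose. In glucose it gave 50.5, 58.3 and 49.1 CPM in LCY002 and 16.3, 16.8 and 18.2 CPM in BY4741. Its interaction was -1.06 ± 0.11 (adjusted p = 2.44e-07), and it too overlaps another annotated gene. GAL7, the uridylyltransferase gene (gene ID 852306, chromosome II, 274427 to 275527), differed less in galactose, with 10175, 10195 and 10630 CPM in LCY002 and 9472, 9528 and 8587 CPM in BY4741. In glucose GAL7 stood at 13.3, 14.4 and 12.1 CPM in LCY002 and at 3.20, 3.42 and 5.35 CPM in BY4741. Its strain difference was 0.17 ± 0.08 in galactose (adjusted p = 0.105) and 1.72 ± 0.16 in glucose (adjusted p = 4.93e-09), which makes an interaction of -1.55 ± 0.19 (adjusted p = 2.17e-06).

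GAL2, the galactose permease gene (gene ID 850770, chromosome XII, 290212 to 291936), had the most negative interaction of the array, -5.08 ± 0.54 (adjusted p = 2.45e-06). In galactose its levels overlapped, at 4464, 4225 and 4305 CPM in LCY002 and 4547, 4786 and 4438 CPM in BY4741. In glucose they did not, at 14.6, 21.4 and 21.96 CPM in LCY002 and 0.581, 0.978 and 0.258 CPM in BY4741. A few counts per library lie behind the BY4741 values in glucose, and GAL2 lies near a transcript that the submitters added, so its reads are uncertain. LCY001 stood at 2690 CPM in galactose and at 0.618 CPM in glucose.

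Both genes of the galactose switch that act upon Gal4 were called. GAL3, the gene of the galactose sensor (gene ID 851572, chromosome IV, 463434 to 464996), gave 584, 581 and 571 CPM in LCY002 and 419.6, 448 and 416 CPM in BY4741 in galactose. In glucose GAL3 gave 59.7, 69.0 and 73.3 CPM in LCY002 and 8.35, 11.04 and 10.6 CPM in BY4741. The strains were apart on both carbon sources, by 1.35 fold in galactose and by 6.72 fold in glucose, and the interaction was -2.31 ± 0.12 (adjusted p = 7.58e-13). GAL80, the gene of the repressor (gene ID 854954, chromosome XIII, 171594 to 172901), gave 899.7, 878 and 886 CPM in LCY002 and 510.2, 537 and 527 CPM in BY4741 in galactose. In glucose it gave 309, 322 and 327 CPM in LCY002 and 99.3, 105 and 97.7 CPM in BY4741, with an interaction of -0.91 ± 0.06 (adjusted p = 1.69e-11). Neither gene overlaps another annotated gene, and the strains did not overlap for either gene on either carbon source.

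GAL4, the activator gene (gene ID 855828, chromosome XVI, 79711 to 82356), was higher in LCY002 by nearly the same ratio on both carbon sources. It averaged 201 ± 3.53 CPM in LCY002 and 85.6 ± 4.46 CPM in BY4741 in galactose, and 103 ± 3.16 CPM in LCY002 and 39.5 ± 1.13 CPM in BY4741 in glucose. The interaction was -0.15 ± 0.10 (adjusted p = 0.361). PGM1, the minor phosphoglucomutase gene, stood at 280.0 ± 9.57 CPM in LCY002 and 145 ± 5.75 CPM in BY4741 in galactose, and at 417 ± 19.0 CPM in LCY002 and 199 ± 1.48 CPM in BY4741 in glucose (interaction -0.12 ± 0.06, adjusted p = 0.183). GAL4 overlaps another annotated gene, so its reads are uncertain as well.

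PGM2, the major phosphoglucomutase gene, is the least sure of the 7 called. It gave 1224, 1119 and 952 CPM in LCY002 and 929, 977 and 949 CPM in BY4741 in galactose, where the groups overlapped, and 385, 357 and 466 CPM in LCY002 and 193, 189.8 and 239 CPM in BY4741 in glucose, where they did not. The interaction was -0.75 ± 0.23 (adjusted p = 0.04). The call ended when any library was left out other than BY4741 glucose replicate 3, LCY002 glucose replicate 2 or LCY002 galactose replicate 1, with values between -0.78 and -0.63 and adjusted p between 0.0542 and 0.116. Per length, by the deposited TPM (a unit that corrects for transcript length), GAL7 and GAL1 were the highest of the 9 genes in LCY002 in galactose, at 8931 ± 183 and 8609 ± 209 TPM, and GAL4 the lowest at 67.3 ± 1.7 TPM.

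LCY001 adds the values of a strain with the marker plasmid alone. The interaction of LCY001 and BY4741 was -0.09 ± 0.14 for GAL1 (adjusted p = 0.613), -0.75 ± 0.13 for GAL3, -1.12 ± 0.20 for GAL7, -0.96 ± 0.12 for GAL10 and -0.27 ± 0.06 for GAL80. The interaction of LCY002 and LCY001 was -1.26 ± 0.13 for GAL1, -1.57 ± 0.11 for GAL3, -0.43 ± 0.17 for GAL7, -0.10 ± 0.11 for GAL10 (adjusted p = 0.477) and -0.64 ± 0.06 for GAL80. The comparisons share libraries and are given side by side only. PGM2 was called positive against LCY001 (2.53 ± 0.23) and negative against BY4741, and LCY001 itself stood at 283 CPM in galactose and 598 CPM in glucose. Over all genes the interaction was called for 2695 genes between LCY002 and LCY001 (47.3%) and for 2900 between LCY001 and BY4741 (50.9%).

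Glycolytic genes of the array showed a small median interaction, positive for those called in the edgeR fit of all 27 libraries. Of the 17 genes, 4 were called positive and 0 negative, and the median was 0.10. DESeq2 called 5 positive and 3 negative, and edgeR on the 12 libraries alone called 4 positive and 4 negative. All 17 were higher in LCY002 in galactose (19.8% of all genes were). In glucose 15 were higher (17.7% of all genes were) and 1 was lower (20.7% of all genes were). The module took 8.74% ± 0.18 of counts in LCY002 and 4.63% ± 0.095 in BY4741 in galactose, and 12.8% ± 0.17 in LCY002 and 7.39% ± 0.21 in BY4741 in glucose.

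TDH2, a glyceraldehyde-3-phosphate dehydrogenase gene, gave 1895, 1834 and 1911 CPM in LCY002 and 1455, 1584 and 1534 CPM in BY4741 in galactose. In glucose it gave 3372, 3073 and 3140 CPM in LCY002 and 4377, 4039 and 3732 CPM in BY4741. LCY002 was thus above BY4741 in galactose and below it in glucose, without overlap, with an interaction of 0.64 ± 0.07 (adjusted p = 9.29e-07). The TDH genes are near-identical, so reads can move between them, and TDH1, TDH2 and TDH3 taken as 1 sum gave log2 ratios of 1.03 in galactose and 0.75 in glucose. CDC19, the main pyruvate kinase gene (chromosome I, 71786 to 73288), gave 7999, 7677 and 7927 CPM in LCY002 and 4985, 5277 and 5231 CPM in BY4741 in galactose. In glucose the groups overlapped, with 13413, 12916 and 12751 CPM in LCY002 and 13233, 12498 and 11980 CPM in BY4741. Its interaction was 0.56 ± 0.06 (adjusted p = 6.3e-07). The other 2 called genes were PGI1, of phosphoglucose isomerase, at 0.33 ± 0.06, and PFK1, of a phosphofructokinase subunit, at 0.32 ± 0.07. The sugar kinase genes HXK1 (-0.77 ± 0.25, adjusted p = 0.0533) and HXK2 (-0.21 ± 0.16, adjusted p = 0.478) did not pass the test. Neither did the array genes GLK1 (-0.41) and PYK2 (-0.32). In the edgeR fit of the 12 libraries alone these genes were called negative. The adjusted p there was 4.26e-05 for HXK1, 0.0156 for HXK2, 0.0091 for GLK1 and 0.0031 for PYK2.

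Ergosterol genes of the array were called in both directions. Of the 14 genes, 2 were called positive and 2 negative, together 28.6% against 11.2% of all genes. Scaled by total counts, 2 were called positive and 4 negative, and a fit of the 12 libraries alone gave the same counts. The median interaction over the 14 genes was -0.01, with median strain differences of 1.23 in galactose and 1.26 in glucose. ERG26, of a C-3 sterol dehydrogenase, was called positive (0.33 ± 0.07, adjusted p = 0.00254), with 259 ± 10.9 CPM in LCY002 and 88.0 ± 3.36 CPM in BY4741 in galactose and 219.9 ± 9.26 CPM in LCY002 and 93.8 ± 4.14 CPM in BY4741 in glucose. ERG11, of lanosterol demethylase, was called positive as well (0.23 ± 0.06, adjusted p = 0.0166), but that call ended without BY4741 glucose replicate 1 (0.21), BY4741 galactose replicate 3 (0.20) or LCY002 galactose replicate 3 (0.21). ERG1, of squalene epoxidase (-0.34 ± 0.06), and ERG4, of the last reductase of the pathway (-0.29 ± 0.05), were called negative. Among 10 further genes of sterol synthesis, outside the array, 0 were called by edgeR or DESeq2 and 2 had an unadjusted p below 0.05.

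**Figure D3:**
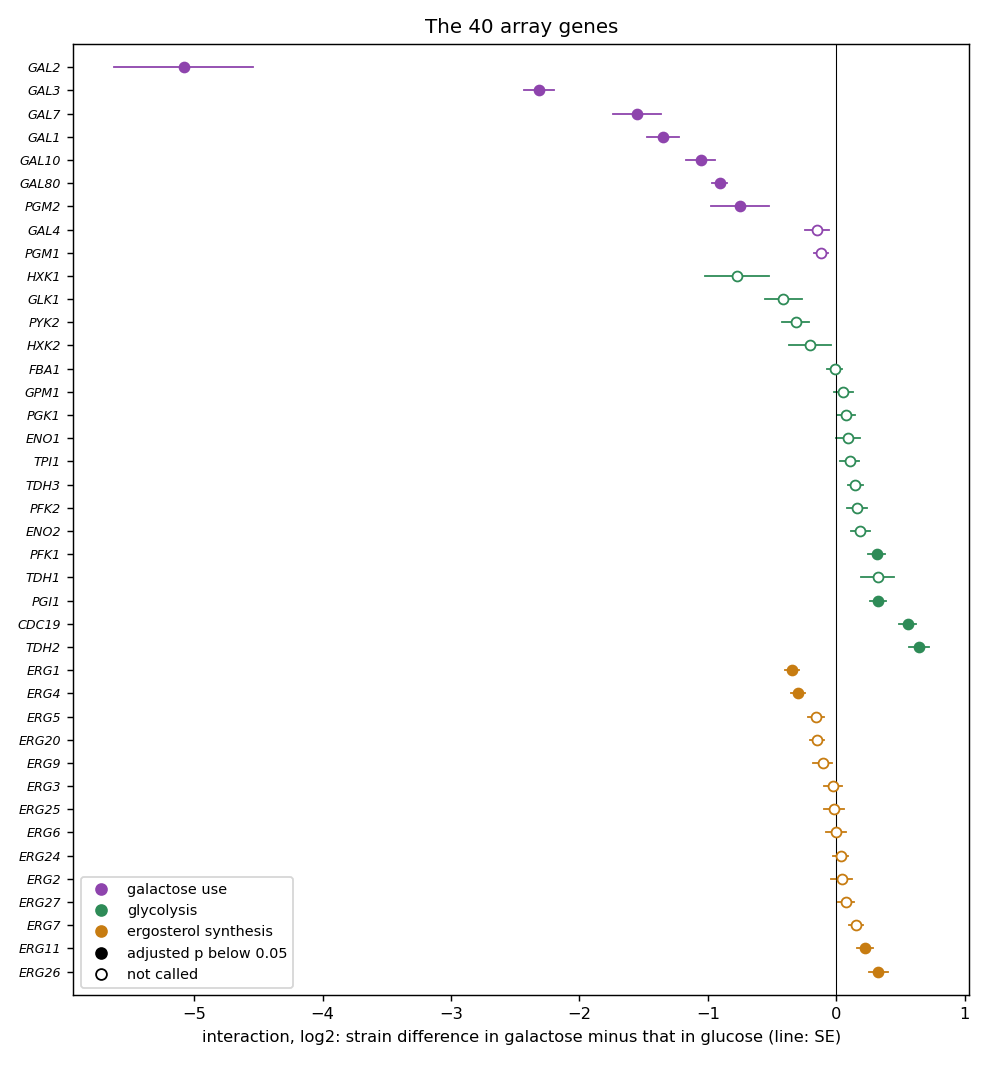
The interaction of each of the 40 array genes as a log2 value with its SE, grouped as galactose use, glycolysis and ergosterol synthesis; filled points passed an adjusted p below 0.05 by edgeR and open ones did not. Of the filled points 7 are galactose genes, all below 0, 4 are glycolytic, all above 0, and 4 are ergosterol genes on both sides.

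Outside the array, the genes described next belong to lists of pathways, and each list is read against the shares of all genes given above (5.41% and 5.74%). Genes of respiration leaned to the negative side. Of 16 genes of the tricarboxylic acid cycle, which oxidises acetyl groups in mitochondria, 11 were called negative and 0 positive, with a median of -0.31. LCY002 was below BY4741 for 14 of the 16 in galactose (18% of all genes were), and in glucose it was below for 7 (20.7% of all genes were) and above for 5. With total counts as the scale LCY002 was below for 15 of the 16 in galactose, and so were 35.9% of all genes. The negative interaction calls numbered 7 without BY4741 galactose replicate 2 or LCY002 glucose replicate 3. The median galactose response of the 16 genes was 1.18 in LCY002 and 1.47 in BY4741. Between LCY002 and LCY001 their median interaction was 0.13, with 7 called positive and 3 negative (23.5% and 23.8% of all genes). Between LCY001 and BY4741 it was -0.52, with 14 called negative (24.4% of all genes) and 0 positive.

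IDH1, which encodes a subunit of isocitrate dehydrogenase (gene ID 855691, chromosome XIV, 557920 to 559002), gave 164, 156 and 166 CPM in LCY002 and 177, 196 and 198 CPM in BY4741 in galactose. In glucose IDH1 gave 135, 138 and 149 CPM in LCY002 and 96.9, 110.2 and 99.6 CPM in BY4741. LCY002 was therefore the lower strain in galactose and the higher one in glucose in every library, with an interaction of -0.69 ± 0.10 (adjusted p = 4.23e-05). The same crossing was found for IDH2, the other subunit (-0.60 ± 0.09), and for ACO1, of aconitase (-0.62 ± 0.09). LSC2, of succinyl-CoA ligase, was called by its difference in glucose alone (-0.41 ± 0.06), with 412 ± 17.4 CPM in LCY002 and 428 ± 1.26 CPM in BY4741 in galactose, and 183 ± 9.04 CPM in LCY002 and 143 ± 1.43 CPM in BY4741 in glucose.

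Of 35 nuclear genes of the respiratory chain and ATP synthase, 12 were called negative and 0 positive, with a median of -0.18. The negative count ran from 8 to 13 when any 1 of the 12 libraries was left out, and from 11 to 17 under the other settings. COX5A, of a cytochrome c oxidase subunit, averaged 226 ± 9.56 CPM in LCY002 and 329 ± 7.70 CPM in BY4741 in galactose, and 76.6 ± 4.69 CPM in LCY002 and 86.0 ± 1.16 CPM in BY4741 in glucose (-0.37 ± 0.06, adjusted p = 0.000111). COX5A lies near an added transcript. ATP20, of a subunit of the ATP synthase, had an interaction of -0.41 ± 0.09 (adjusted p = 0.0026). Among 26 genes of the mitochondrial ribosome, which makes proteins inside mitochondria, 8 were called negative, MRPS5 with -0.38 ± 0.08. That count was 16 with total counts as the scale, 18 in the fit of the 12 libraries alone and 13 in that fit with the TMM factors of all 27 libraries. It was 3 without BY4741 glucose replicate 1, 4 without BY4741 galactose replicate 2, LCY002 glucose replicate 3 or LCY002 galactose replicate 3, and 5 without BY4741 glucose replicate 3 or LCY002 galactose replicate 1 or 2. ODC1, a mitochondrial carrier gene of oxodicarboxylates outside these lists, gave 121, 125 and 128 CPM in LCY002 and 186, 187 and 183 CPM in BY4741 in galactose, and 34.0, 34.1 and 34.9 CPM in LCY002 and 26.0, 26.4 and 26.1 CPM in BY4741 in glucose (-0.97 ± 0.07, adjusted p = 1.23e-10).

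Chaperone genes of 2 lists were called in opposite directions. Of 21 genes of heat shock proteins and chaperones, 10 were called positive and 0 negative, with a median of 0.22. Of 10 chaperone genes of the endoplasmic reticulum, 6 were called negative and 0 positive, with a median of -0.27. When any library was left out, the heat shock count stayed between 9 and 11 and the other at 6. Against LCY001 the median interaction of the heat shock list was 1.27 for LCY002, and that of LCY001 with BY4741 was -0.97.

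SSA2, an Hsp70 gene (gene ID 850636, chromosome XII, 95566 to 97485), gave 979.9, 945 and 917 CPM in LCY002 and 535, 571 and 546 CPM in BY4741 in galactose. In glucose it gave 1616, 1578 and 1530 CPM in LCY002 and 1715, 1629 and 1552 CPM in BY4741, which overlapped. The interaction was 0.83 ± 0.08 (adjusted p = 1.81e-08), and reads may be shared with the similar gene SSA1. HSP82, an Hsp90 gene similar to HSC82, gave 356, 299 and 294 CPM in LCY002 and 167, 179 and 194 CPM in BY4741 in galactose, and 179.6, 207 and 197 CPM in LCY002 and 197, 204 and 201 CPM in BY4741 in glucose (0.86 ± 0.11, adjusted p = 4.21e-06). HSP26, a small heat shock protein gene, averaged 124 ± 36.7 CPM in LCY002 and 19.3 ± 4.64 CPM in BY4741 in galactose, and 72.4 ± 3.47 CPM in LCY002 and 27.4 ± 6.34 CPM in BY4741 in glucose. Its interaction of 1.29 ± 0.28 (adjusted p = 0.00462) did not pass in a fit of the 12 libraries alone (adjusted p = 0.0751). BTN2, which encodes a protein that gathers misfolded proteins, gave 60.6, 54.8 and 49.6 CPM in LCY002 and 20.6, 19.4 and 21.4 CPM in BY4741 in galactose, and it overlapped in glucose (56.4 ± 3.94 CPM in LCY002 and 60.9 ± 2.19 CPM in BY4741; interaction 1.54 ± 0.13).

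KAR2, the main Hsp70 gene of the endoplasmic reticulum (gene ID 853418, chromosome X, 381327 to 383375), gave 355, 364 and 368 CPM in LCY002 and 477, 502 and 547 CPM in BY4741 in galactose. In glucose it gave 406, 385 and 393 CPM in LCY002 and 354, 365 and 348 CPM in BY4741. KAR2 was thus below BY4741 in galactose and above it in glucose, with an interaction of -0.64 ± 0.06 (adjusted p = 3.22e-08). JEM1, of a co-chaperone of Kar2, crossed in the same way (-0.46 ± 0.08), while ERO1, of the oxidase that forms disulphide bonds (-0.42 ± 0.07), differed only in glucose and SIL1, of a nucleotide exchange factor (-0.42 ± 0.07), only in galactose by the test within each carbon source.

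Histidine genes were higher in LCY002 on both carbon sources for 5 of 6 members, while 19.8% of all genes were higher in galactose and 17.7% in glucose. For the interaction 2 of the 6 were called positive and 0 negative. HIS4, which encodes an enzyme of several steps of histidine synthesis (gene ID 850327, chromosome III, 65934 to 68333), gave 1448, 1367 and 1410 CPM in LCY002 and 90.3, 95.6 and 95.2 CPM in BY4741 in galactose. In glucose HIS4 gave 1521, 1587 and 1592 CPM in LCY002 and 256, 264 and 247 CPM in BY4741. The strains were far apart on both carbon sources, and galactose lowered HIS4 by 0.15 on the log2 scale in LCY002 and by 1.45 in BY4741, with an interaction of 1.29 ± 0.09 (adjusted p = 4.46e-11). HIS1, of the first enzyme of the pathway, averaged 557 ± 14.3 CPM in LCY002 and 157 ± 2.79 CPM in BY4741 in galactose, and 844 ± 9.57 CPM in LCY002 and 368 ± 14.7 CPM in BY4741 in glucose (0.63 ± 0.07, adjusted p = 1.68e-07). The other 4 genes of the pathway, HIS2, HIS5, HIS6 and HIS7, were not called. HIS5, chosen for its motif after its values were seen, stood at 549 CPM in LCY002 and 91.6 CPM in BY4741 in galactose and at 654 CPM in LCY002 and 107.6 CPM in BY4741 in glucose.

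Upstream of these genes the letters TGACTCA, bound by the amino acid regulator Gcn4, were searched on both strands, because the genes of the pathway differ in the interaction although 5 of the 6 were higher in LCY002 on both carbon sources. HIS4, HIS1, HIS5 and HIS7 each had 1 match within 600 bases before the start codon, against 4.82% of all genes, so the match does not separate the called from the other genes. Capitals mark the match.
HIS4 match at 199 bases (chrIII:68516-68542, minus strand): ccatgcacagTGACTCAcgttttttta
HIS1 match at 184 bases (chrV:265953-265979, minus strand): agcttccaagTGAGTCAcctctaccgt
HIS5 match at 202 bases (chrIX:142716-142742, plus strand): ttggatctgtTGACTCActtcaattga
HIS7 match at 231 bases (chrII:716680-716706, minus strand): aaaaaaaaatTGAGTCAtatcgtagct
The first and the third read the motif on the strand of the gene, and the other 2 on the opposite strand.

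Of 11 purine synthesis genes, 10 were higher in LCY002 on each carbon source (19.8% of all genes were in galactose and 17.7% in glucose). For the interaction 3 were called positive and 0 negative. ADE12, of the enzyme that commits IMP to AMP, gave 379.8, 387 and 389.7 CPM in LCY002 and 107, 108 and 111 CPM in BY4741 in galactose, and 448, 443 and 441 CPM in LCY002 and 263, 258 and 251 CPM in BY4741 in glucose (1.04 ± 0.07, adjusted p = 5.96e-11). ADE17, of the last steps to IMP, had an interaction of 0.69 ± 0.16 (adjusted p = 0.00721). Of 4 genes that lead from IMP to GMP, 2 were lower in LCY002 in galactose (18% of all genes were) and all 4 in glucose (20.7% of all genes were). For the interaction 3 of the 4 were called positive, all of them genes of IMP dehydrogenase. IMD2 gave 12.7, 14.6 and 14.9 CPM in LCY002 and 32.4, 33.5 and 33.6 CPM in BY4741 in galactose. In glucose IMD2 gave 40.2, 36.7 and 39.3 CPM in LCY002 and 343, 337 and 326 CPM in BY4741. BY4741 in glucose was the high group, and the interaction of 1.88 ± 0.14 (adjusted p = 7.2e-10) comes from a strain difference of -1.24 in galactose and of -3.11 in glucose. LCY001 stood at 20.3 CPM in galactose and 63.1 CPM in glucose, and the interaction of LCY002 and LCY001 was 0.18 ± 0.15 (adjusted p = 0.336). The similar genes IMD3 (0.38 ± 0.08) and IMD4 (0.43 ± 0.11) were called as well, and reads may be shared among them. IMD4 overlaps another annotated gene as well.

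Genes of other amino acid pathways were called in both directions or not at all. All 9 arginine genes and all 7 lysine genes were higher in LCY002 on both carbon sources, as were all 10 branched-chain genes in galactose and 9 of them in glucose. Of all genes 19.8% were higher in LCY002 in galactose and 17.7% in glucose. The interaction was called for 3 arginine genes (1 positive and 2 negative), for 3 lysine genes (1 positive and 2 negative) and for 4 branched-chain genes (3 positive and 1 negative), each a larger share than the 11.2% of all genes. ARG56, of a precursor of 2 enzymes of the arginine pathway, was called positive (0.40 ± 0.07), and ARG4, of argininosuccinate lyase (-0.31 ± 0.07), and ARG8, of acetylornithine aminotransferase (-0.42 ± 0.08), negative. BAT2, of the cytosolic branched-chain aminotransferase, averaged 106 ± 1.43 CPM in LCY002 and 75.8 ± 4.98 CPM in BY4741 in galactose, and 139 ± 1.32 CPM in LCY002 and 56.9 ± 3.75 CPM in BY4741 in glucose (-0.81 ± 0.08, adjusted p = 3.46e-08), and it lies near an added transcript. LYS1, of the last enzyme of lysine synthesis, averaged 335 ± 14.0 CPM in LCY002 and 52.3 ± 1.71 CPM in BY4741 in galactose, and 417 ± 14.2 CPM in LCY002 and 42.6 ± 3.08 CPM in BY4741 in glucose (-0.61 ± 0.08, adjusted p = 2.97e-06), while LYS20, of the first enzyme, was called positive (0.34 ± 0.07). None of 13 aromatic amino acid genes was called in the edgeR fit used here or by DESeq2, and 0 had an unadjusted p below 0.05. Other settings called at most 1 of them, as negative. Of 19 genes of sulfate assimilation and methionine, 0 were called in either of these fits and 4 had an unadjusted p below 0.05. Other settings called at most 1, as positive. ARO9, of an aromatic aminotransferase that breaks amino acids down, gave 69.4, 65.0 and 73.7 CPM in LCY002 and 8.14, 10.47 and 8.75 CPM in BY4741 in galactose, and 68.3, 61.5 and 66.2 CPM in LCY002 and 2.83, 3.63 and 3.42 CPM in BY4741 in glucose (-1.38 ± 0.16, adjusted p = 6.13e-07). PUT4, the proline permease gene, gave 12.2, 12.1 and 13.5 CPM in LCY002 and 23.6, 24.5 and 24.6 CPM in BY4741 in galactose, and 4.93, 4.68 and 4.20 CPM in LCY002 and 3.12, 2.17 and 2.77 CPM in BY4741 in glucose. PUT4 was therefore lower than in BY4741 in galactose and higher in glucose (-1.71 ± 0.28, adjusted p = 0.000165).

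**Figure D4:**
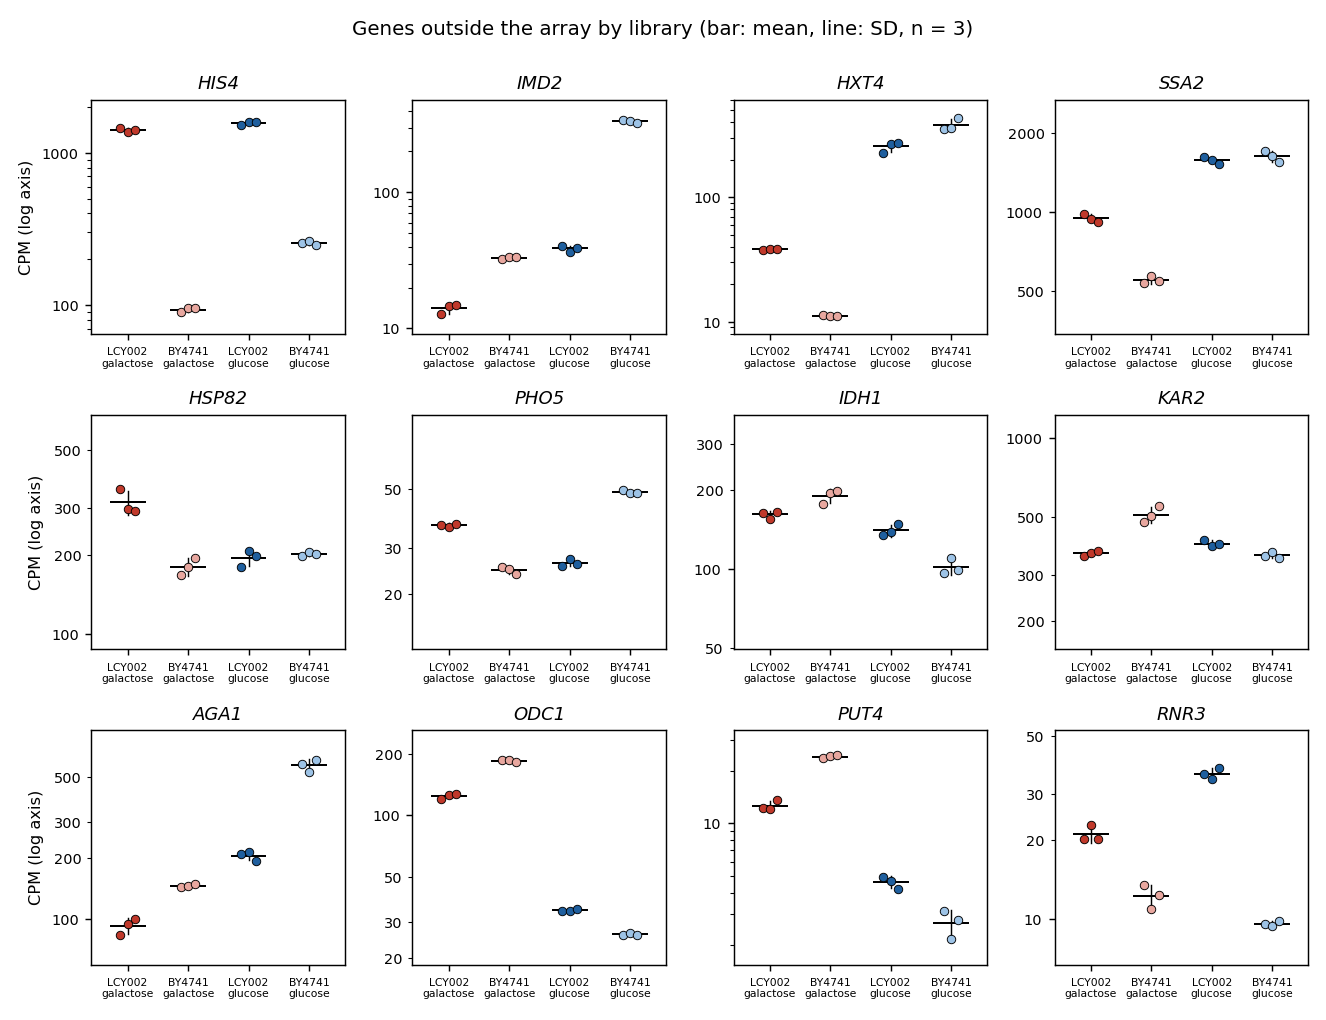
CPM on a log axis for 12 genes outside the array, with 1 point per library, the mean as a bar and the SD as a line (n = 3), LCY002 left of BY4741 and galactose left of glucose. HIS4 and IMD2 stand apart between strains on both carbon sources, SSA2 and HSP82 only in galactose, and PHO5, IDH1, KAR2, HXT4, ODC1 and PUT4 change their order between galactose and glucose.

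Phosphate genes leaned to the positive side. Of 14 genes of the phosphate regulon, which is switched on when phosphate is short, 6 were called positive and 0 negative, with a median of 0.26. PHO5, of a secreted acid phosphatase (gene ID 852390, chromosome II, 429548 to 430951), gave 36.6, 35.9 and 37.0 CPM in LCY002 and 25.4, 24.9 and 23.7 CPM in BY4741 in galactose. In glucose PHO5 gave 25.6, 27.2 and 25.9 CPM in LCY002 and 49.8, 48.4 and 48.2 CPM in BY4741. The strain order turned round without overlap, with an interaction of 1.46 ± 0.08 (adjusted p = 1.23e-12), although PHO5 has similar copies such as PHO3 and PHO12. PHO84, of the high-affinity phosphate transporter, crossed too, with 61.7 ± 5.72 CPM in LCY002 and 38.0 ± 0.869 CPM in BY4741 in galactose, and 45.1 ± 3.81 CPM in LCY002 and 62.4 ± 2.73 CPM in BY4741 in glucose (1.17 ± 0.11, adjusted p = 1.39e-08). PHO84 overlaps another annotated gene. SPL2, of a small regulator of phosphate uptake, had the largest value of the list (3.51 ± 0.51), at only 1.38 ± 0.349 CPM in LCY002 and 0.301 ± 0.0361 CPM in BY4741 in galactose, and 0.698 ± 0.238 CPM in LCY002 and 1.78 ± 0.277 CPM in BY4741 in glucose. LCY001 stood at 29.8 CPM in galactose and 25.3 CPM in glucose for PHO5, and its interaction with BY4741 was 1.22 ± 0.08.

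Among 15 genes of hexose transporters, which carry glucose and related sugars into the cell, 3 were called positive and 2 negative. HXT4, of a transporter of high affinity (gene ID 856492, chromosome VIII, 287081 to 288811), had the largest positive interaction outside the array among genes with a mean of at least 5 CPM, 2.35 ± 0.30 (adjusted p = 2.64e-05). It gave 37.4, 38.8 and 38.4 CPM in LCY002 and 11.3, 11.1 and 11.2 CPM in BY4741 in galactose, and 228, 269 and 273 CPM in LCY002 and 351, 363 and 435 CPM in BY4741 in glucose. LCY002 was the higher strain in galactose and the lower one in glucose. HXT5 (1.11 ± 0.16) was also called positive. The 2 negative ones were HXT15 (-0.53 ± 0.08) and HXT11 (-0.75 ± 0.15), the second near an added transcript, and reads may be shared among these similar genes. Of 16 regulators of glucose sensing and repression, another list, 2 were called positive and 1 negative, with a median of 0.05. STD1, of a glucose sensing factor, was called positive, with 13.9 ± 0.839 CPM in LCY002 and 8.98 ± 0.118 CPM in BY4741 in galactose and 118 ± 4.52 CPM in LCY002 and 135 ± 6.07 CPM in BY4741 in glucose (0.82 ± 0.14, adjusted p = 0.000207).

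The mating genes of a cells, 5 of 5 tested, were lower in LCY002 on both carbon sources and less so in galactose. Of all genes 18% were lower in galactose and 20.7% in glucose. Of the 5 a-cell genes tested 3 were called positive, AGA1, AGA2 and BAR1. AGA1, of an anchor for the cell surface agglutinin, gave 83.0, 93.7 and 100.0 CPM in LCY002 and 143, 145 and 149 CPM in BY4741 in galactose, and 208, 214 and 193 CPM in LCY002 and 584, 528 and 612 CPM in BY4741 in glucose (0.83 ± 0.14, adjusted p = 0.000222). BAR1, of the protease that degrades alpha factor, had an interaction of 0.42 ± 0.07 and AGA2 of 0.46 ± 0.10. Of 5 alpha-cell genes 2 were called negative, STE3 and AFB1, and 0 positive, with interactions between -0.60 and 0.20. STE3, the a-factor receptor gene of alpha cells, stood at 15.9 ± 0.895 CPM in LCY002 and 17.9 ± 0.451 CPM in BY4741 in galactose and at 12.2 ± 0.821 CPM in LCY002 and 9.06 ± 0.657 CPM in BY4741 in glucose (-0.60 ± 0.13, adjusted p = 0.00272).

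Genes of DNA precursor synthesis and of the start of the cell cycle leaned to the negative side. Of 4 ribonucleotide reductase genes 3 were called negative and 0 positive, and the call of 1 of them, RNR2 (-0.24, adjusted p = 0.0433), ended without any library other than LCY002 galactose replicate 1. RNR3, of a ribonucleotide reductase subunit that DNA damage is known to induce, gave 20.2, 22.9 and 20.2 CPM in LCY002 and 13.5, 10.9 and 12.3 CPM in BY4741 in galactose. In glucose RNR3 gave 35.7, 34.2 and 37.7 CPM in LCY002 and 9.59, 9.36 and 9.80 CPM in BY4741. LCY002 was higher on both carbon sources, by more in glucose (-1.11 ± 0.15, adjusted p = 8.27e-06). Of 10 genes of G1 cyclins and the G1/S switch, 4 were called negative and 0 positive. RNR1 belongs to both lists and is counted in each. The call of CLN2 (-0.18) ended for 10 of the 12 libraries when each was left out by itself. PCL1, a G1 cyclin gene, averaged 54.5 ± 1.27 CPM in LCY002 and 73.2 ± 3.06 CPM in BY4741 in galactose, and 42.6 ± 2.63 CPM in LCY002 and 29.4 ± 3.48 CPM in BY4741 in glucose (-0.96 ± 0.13, adjusted p = 2.44e-05). RNR1, of the main large subunit of the reductase, crossed likewise (-0.42 ± 0.08, adjusted p = 0.0013).

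Further genes outside the array with large interactions belong to no list described so far. ZRT1, the high-affinity zinc transporter gene, gave 165, 124 and 141 CPM in LCY002 and 29.8, 29.1 and 27.5 CPM in BY4741 in galactose, and 803, 798 and 889 CPM in LCY002 and 455, 483 and 439 CPM in BY4741 in glucose (1.46 ± 0.13, adjusted p = 2.02e-08). TPO2, a polyamine transporter gene, averaged 549.8 ± 24.8 CPM in LCY002 and 177 ± 18.6 CPM in BY4741 in galactose, and 501 ± 47.5 CPM in LCY002 and 434 ± 21.8 CPM in BY4741 in glucose (1.43 ± 0.21, adjusted p = 0.000111). PFK27, of an enzyme that makes fructose-2,6-bisphosphate, had an interaction of 1.18 ± 0.28 (adjusted p = 0.00763). CSR2, an arrestin-related gene, was below BY4741 in galactose and above it in glucose, with 269, 271 and 262 CPM in LCY002 and 399, 423 and 365 CPM in BY4741 in galactose, and 34.7, 41.0 and 35.1 CPM in LCY002 and 26.8, 27.7 and 29.3 CPM in BY4741 in glucose (-0.97 ± 0.17, adjusted p = 0.000391). SDD1 had an interaction of -1.75 ± 0.25 (adjusted p = 3.29e-05), with 69.7 ± 2.94 CPM in LCY002 and 164 ± 9.46 CPM in BY4741 in galactose and 6.53 ± 1.09 CPM in LCY002 and 4.57 ± 0.0987 CPM in BY4741 in glucose. Of 4 Gal4 target genes that the array does not carry, 1 was called negative and 0 positive. That gene was FUR4, the uracil permease gene that lies next to GAL1 (-0.52 ± 0.12, adjusted p = 0.00555). It averaged 88.8 ± 5.68 CPM in LCY002 and 127 ± 4.07 CPM in BY4741 in galactose, and 36.2 ± 2.15 CPM in LCY002 and 36.2 ± 1.21 CPM in BY4741 in glucose. Within 600 bases before the start codon the Gal4 motif was found for the other 3 of these 4 genes and not for FUR4. In that window it was found for 31 of the 327 genes called negative (9.48%), or 25 of the 318 outside the array (7.86%), for 11 of the 308 called positive (3.57%), and for 3.45% of all genes.

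**Figure D5:**
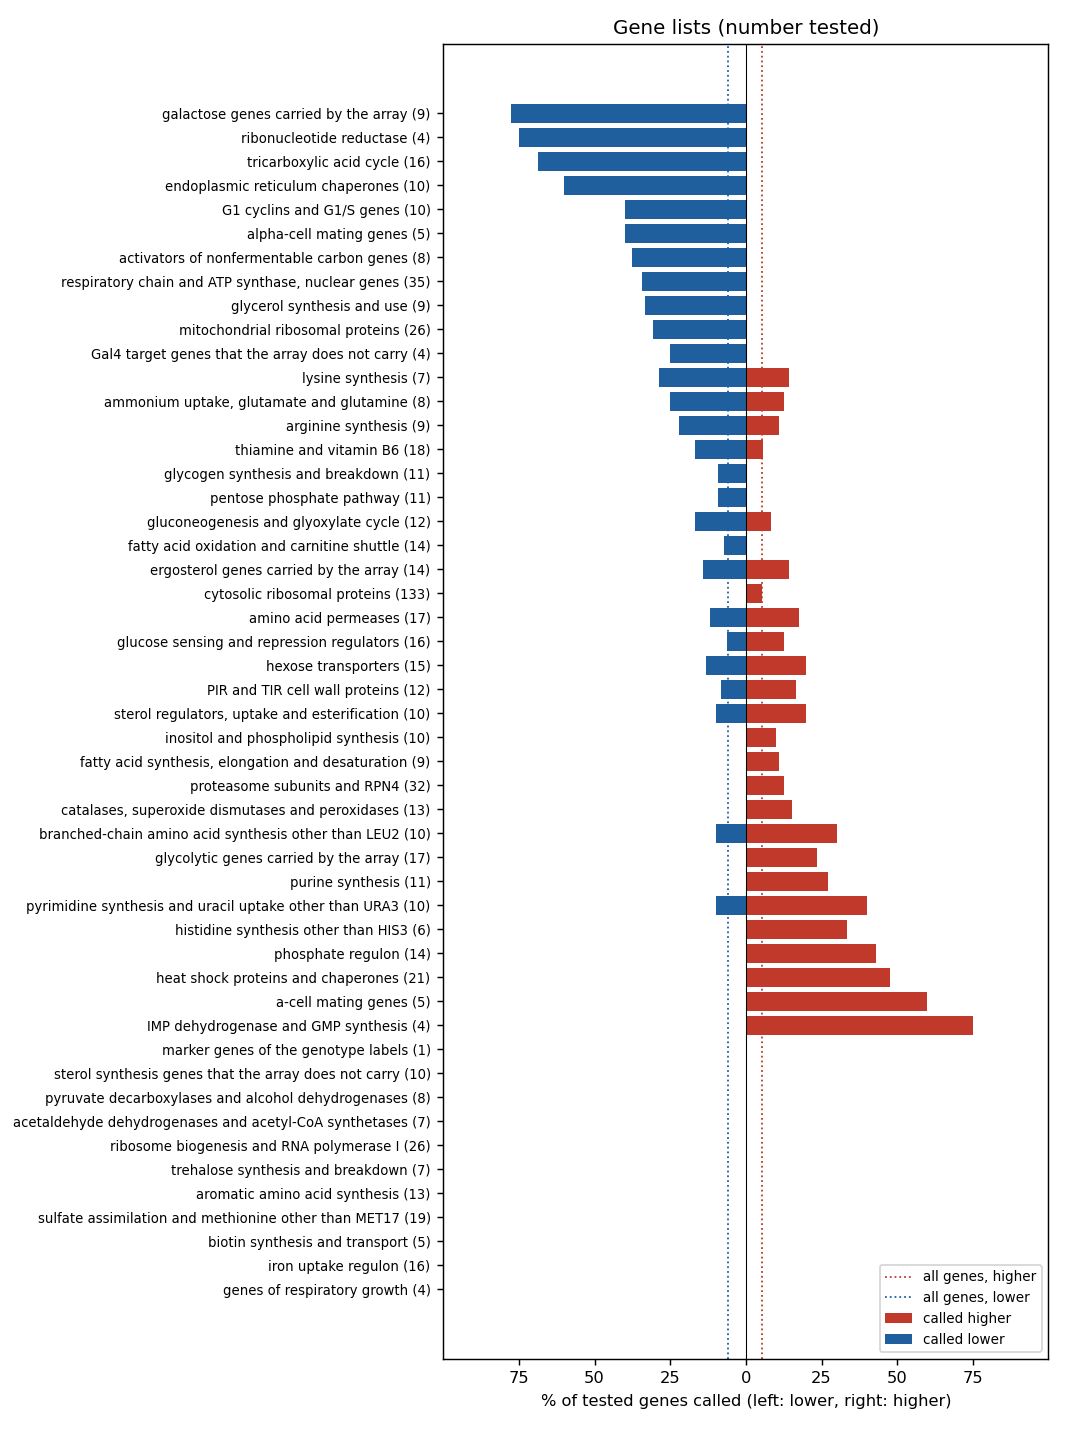
Share of the tested genes of each of 50 lists with the interaction called, positive to the right in red and negative to the left in blue, with dotted lines at the shares of all genes (5.41% and 5.74%); the number tested stands behind each name, and lists run from the most negative to the most positive balance of calls. The galactose genes of the array, the tricarboxylic acid cycle and the endoplasmic reticulum chaperones extend to the left, the heat shock, phosphate and GMP lists to the right, and 11 lists at the foot have 0 called.

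Several large groups of genes showed no called interaction or a share near that of all genes. Of 133 cytosolic ribosomal protein genes 7 were called positive (5.26%), near the 5.41% of all genes. That count was 3 in the fit of the 12 libraries alone, 12 without BY4741 glucose replicate 3, and 4 without BY4741 glucose replicate 1, BY4741 galactose replicate 1 or LCY002 galactose replicate 3. None of the 26 ribosome biogenesis genes was called in the edgeR fit used here or by DESeq2, and 4 had an unadjusted p below 0.05. Other settings called up to 3 of them positive. The 16 iron uptake genes had 0 calls in either of these fits and 1 unadjusted p below 0.05, though 5 were called negative without BY4741 galactose replicate 2. The 8 genes of pyruvate decarboxylases and alcohol dehydrogenases had 0 calls in either fit and 2 such p-values, and other settings called at most 1 negative. Over all genes 1364 had an unadjusted p below 0.05.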

How the data were processed

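RNA-seq of Saccharomyces cerevisiae was deposited as RSEM expected counts and TPM (a level corrected for length and depth) per gene and library. The authors used HISAT2 2.1.0, Bowtie2 2.2.5 and RSEM 1.2.8 on build R64, per the submitters' processing notes. Per the labels' protocols, polyadenylated RNA was taken with oligo(dT) beads and copied from random hexamers, with no statement on strand. Expected counts, as deposited, were rounded to whole numbers, and the deposited TPM served only to compare levels between genes.

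All 27 libraries entered 1 model with a term per group, in edgeR 4.0.16 under R 4.3.3 (TMM scaling, default filter on low counts, robust quasi-likelihood F-test, 18 residual degrees of freedom, 5692 of 5995 genes tested), with limma 3.58.1 for the contrasts. P-values were adjusted by Benjamini-Hochberg over all genes tested, and a gene was called below 0.05. CPM are counts divided by TMM-scaled library size. The code was checked on simulated counts. The 12 replicate pairs differed by more than counting noise (chi-square per degree of freedom 3.40 to 8.70), so every library was counted as 1 replicate. The p-values rest on the spread between colonies within groups, estimated over all 27 libraries and moderated across genes, and not on the 4 compared groups alone. DESeq2 1.42.0 and the other settings tried are given at the end.

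The comparison, its members and the lists were chosen with earlier results of these data known. Named genes are the markers, the array genes, the 12 largest called interactions in each direction outside the array with a mean of at least 5 CPM and no uncertain reads, and up to 4 called genes with the largest interactions per list. Reads were treated as uncertain for 588 genes that hold or lie near a transcript added by the submitters, overlap another gene or have replicates far apart. Symbols and places were matched by gene ID to the RefSeq annotation of R64 for 5980 genes. The third growth medium of the series entered the fit but is not analysed here.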

Additional observations from a re-analysis of the deposited data

Results flagged for a closer look

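For 69 genes the difference between LCY002 and BY4741 was called in opposite directions in galactose and glucose, with the interaction called as well. Among those named, LCY002 was higher in galactose and lower in glucose for SPL2 (interaction 3.51), HXT4 (2.35), PHO5 (1.46), PHO84 (1.17), STD1 (0.82) and TDH2 (0.64). LCY002 was lower in galactose and higher in glucose for PUT4 (-1.71), YDR010C (-1.41), CSR2 (-0.97), ODC1 (-0.97), PCL1 (-0.96), FBP1 (-0.84), SNZ3 (-0.70), IDH1 (-0.69), GUT2 (-0.68), KAR2 (-0.64), ACO1 (-0.62), IDH2 (-0.60), HXT15 (-0.53), JEM1 (-0.46), JEN1 (-0.45) and RNR1 (-0.42). YDR010C lies just past the end of GAL3.

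Another 17 values were singled out because the interaction of LCY002 was called in opposite directions against LCY001 and against BY4741. Against LCY001 it was positive for PGM2 (2.53), GDB1 (2.24), RTC2 (1.29), CSR2 (1.01), CAT8 (0.80), REG2 (0.73), GUT2 (0.48), FAA2 (0.33), ARG4 (0.32), ZWF1 (0.24), LYS1 (0.24), HXT15 (0.24) and LSC2 (0.14), each negative against BY4741. It was negative against LCY001 for URA2 (-0.54), ERG11 (-0.30), ARE2 (-0.22) and IMD3 (-0.20), each positive against BY4741. The difference between these 2 interactions is the interaction of LCY001 and BY4741, and the comparisons share the libraries of LCY002.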

How the results depend on the processing

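With only the 12 libraries in the fit, 617 genes were called negative for the interaction and 269 positive. Scaled by the TMM factors of all 27 libraries, a setting chosen after seeing the data, the same 12 gave 401 negative and 453 positive. With total counts as the scale the galactose strain difference was called higher for 751 and lower for 2044 genes, and the median interaction of all genes was -0.02. DESeq2 called 683 interactions, 611 of them shared. Leaving out any 1 library gave 473 to 577 calls. The replicate block gave 612 calls, 597 of them shared, and it ended the call of PGM2 (adjusted p = 0.0587). For pairing, the group mean of each gene was subtracted from the log2 CPM of every library. These deviations correlated between -0.158 and 0.119 over 18 pairs of same-numbered libraries. By them 2 of 12 libraries were closest to their own number, which gives no sign of pairing. Such a check cannot show that same-numbered libraries shared no day or batch. Of 136 named genes called, 107 were called under every setting, 13 lost the call under another setting and 26 with a library left out, and 0 reversed.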
